A study of Mus musculus with 4 samples.

Results

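Genes that copy DNA and genes that carry out mitosis were followed as a set of 36, out of 24971 genes with a symbol or accession of their own in the count files. They were chosen by name and not by a rule on their values, though with earlier results of these data known. Of them, 17 are listed as S-phase genes and 19 as mitotic genes, though Ccna2 of the mitotic list also acts in S phase. Of the 36, 28 had enough counts to be tested, 13 of the S-phase genes and 15 of the mitotic genes. The other 8 (Mcm5, Tyms, Cdc6, Ccne2, Bub1, Tpx2, Aurka and Nusap1) had 0 to 4 counts per library and no level is read from them.

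RNA came from neural tubes of C57BL/6 mouse embryos at E12.5, in midgestation, with no treatment named in the labels, in 2 libraries labelled WT and 2 labelled Lbx1Δ/Δ, mutant for the homeobox gene Lbx1 of dorsal interneurons. Each library was a pool of tubes of 1 genotype from 1 litter, so that embryos within a pool are not separate replicates. Replicate numbers 1 and 2 occur in both genotypes, and the labels do not say whether the same number marks the same litter or day. They do not give the deleted part of Lbx1 or the dissected levels of the tube either.

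The libraries held 16853984 to 20579803 counts, and levels are given as CPM, the count scaled to a common library total. A count of 0 allows up to 0.146 to 0.178 CPM (3 counts in a library, counting error only). Lbx1 itself had 819 counts in WT 1, 1379 in WT 2, 1946 in Lbx1Δ/Δ 1 and 6520 in Lbx1Δ/Δ 2, which does not check the genotype because the deleted part is not stated. Neural markers were abundant in each library: the summed level of 12 progenitor markers such as Sox2 was 5206 to 6055 CPM and that of 12 neuronal markers such as Tubb3 was 6898 to 13910 CPM. Markers of blood, mesenchyme and muscle were present too and are given below beside the results. All p-values below reflect the spread among these 4 pools only, which may be technical.

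In the neural tube, progenitors line the ventricle, divide repeatedly and give rise to neurons that leave the cell cycle and move outward. Before S phase, ORC, Cdc6 and Cdt1 load the MCM helicase onto origins, after which cyclin E and cyclin A kinases, the GINS complex, DNA polymerases and their clamp start and extend replication, fed by ribonucleotide reductase. Mitotic genes follow in G2 and M phase, when cyclin B with Cdk1 starts mitosis, kinesins and Aurora and Polo kinases build the spindle, and the checkpoint holds the anaphase-promoting complex until chromosomes are attached. In textbook accounts S-phase genes are switched by E2F factors, and many mitotic genes by the MuvB complex with B-Myb and FoxM1 at CHR elements, often with CCAAT boxes bound by NF-Y.

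The promoters of the members were therefore described first. RefSeq (GRCm38.p6, another build than that of the counts and used only for names and sequence) gave 31 windows for 30 members, each 250 bases before to 50 after the start, and no entry for Mcm4, Gins2, Ccne2, Ccna2, Aurkb and Tpx2. The members shown are the 2 S-phase and the 2 mitotic genes with an entry and the smallest p between replicate numbers. Each line gives the 250 bases before the start on the minus strand, 5′ to 3′, with matches on either strand in capitals: to CHR elements (TTTGAA or TTCGAA), to the box CCAAT and to E2F-type sites (TTGGCGC or TTGCCGC or TTCGCGC or TTCCCGC).
Ccne1, GRCm38.p6 chr7:38107491-38107740: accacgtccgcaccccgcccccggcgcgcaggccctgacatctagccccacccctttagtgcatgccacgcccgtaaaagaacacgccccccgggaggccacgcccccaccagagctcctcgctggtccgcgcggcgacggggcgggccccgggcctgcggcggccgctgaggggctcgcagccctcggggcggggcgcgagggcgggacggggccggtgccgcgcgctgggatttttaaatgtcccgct
Mcm3, GRCm38.p6 chr1:20820313-20820562: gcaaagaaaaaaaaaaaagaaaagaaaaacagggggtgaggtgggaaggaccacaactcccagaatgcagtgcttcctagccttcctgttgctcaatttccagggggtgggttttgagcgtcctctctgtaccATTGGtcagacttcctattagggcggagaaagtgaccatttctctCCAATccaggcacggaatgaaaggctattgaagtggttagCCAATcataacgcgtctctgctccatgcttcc
Ccnb2, GRCm38.p6 chr9:70421555-70421804: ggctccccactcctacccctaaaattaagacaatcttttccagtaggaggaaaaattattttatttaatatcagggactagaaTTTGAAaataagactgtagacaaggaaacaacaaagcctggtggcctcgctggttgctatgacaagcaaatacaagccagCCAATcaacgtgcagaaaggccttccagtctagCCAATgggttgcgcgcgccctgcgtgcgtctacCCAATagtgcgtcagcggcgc
Cdk1, GRCm38.p6 chr10:69352913-69353162: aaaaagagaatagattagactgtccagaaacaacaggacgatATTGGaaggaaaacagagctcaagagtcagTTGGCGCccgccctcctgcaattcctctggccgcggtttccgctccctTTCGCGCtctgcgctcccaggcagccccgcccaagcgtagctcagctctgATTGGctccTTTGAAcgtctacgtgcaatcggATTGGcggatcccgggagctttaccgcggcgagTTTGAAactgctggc

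The Ccne1 window, for cyclin E1, held none of the motifs. In Mcm3, a helicase subunit, 3 CCAAT matches lay 117, 72 and 32 bases before the start. Its 3 E2F-type matches, of which TTGGCGC and GCGCCAA overlap on opposite strands, lay after the start. They are in the 30 bases shown here with matches in capitals because the printed promoter ends before them.
Mcm3, GRCm38.p6 chr1:20820264-20820293, bases 20 to 49 after the start: GCGGGAAaacttgggaagttTTGGCGCCAA

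Ccnb2, for cyclin B2, held CCAAT matches 87, 54 and 21 bases before the start and a CHR match at 167, with another CHR match just after the start. The bases just after this start were not found in a GENCODE transcript of Ccnb2, so these distances are less certain. Cdk1, the kinase that cyclin B activates, held both kinds and E2F-type matches as well: CHR at 71 and 15, CCAAT at 208, 80 and 48, and E2F-type at 178 and 130 bases before the start. Over the set, E2F-type matches were in 11 of 15 S-phase windows (73.3%) and 3 of 16 mitotic windows (18.8%), against 9.57% of all 32851 RefSeq windows of the same length. CHR matches were in 2 of 15 S-phase windows (13.3%) and 12 of 16 mitotic windows (75.0%), against 19.2% of all windows. CCAAT matches were in 11 of 15 (73.3%) and 14 of 16 (87.5%), against 37.4%. CHR and CCAAT occurred together in 12 mitotic and 2 S-phase windows, against 7.52% of all windows. Mcm6 had the highest number of E2F-type matches, 5, and Top2a of CHR matches, 4, with overlapping matches counted separately. E2F-type and CCAAT matches overlapped in 3 of 31 windows. The median GC content was 57.7% in S-phase windows, 58.3% in mitotic windows and 52.7% in all windows. A match is a run of letters and does not show that a factor binds there.

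How the counts were made limits which members can be read. Counts had been deposited per transcript accession. All 25 members with a single accession held 3413 to 70231 counts over the 4 libraries, whereas 7 of 11 members with several accessions (63.6%) held fewer than 10. Among all genes, 41.3% of 17047 with a single accession and 61.3% of 7924 with several held fewer than 10. Mcm5, Tyms, Bub1 and Tpx2 were at 0 in all 4 libraries, and each has several accessions. What was done with a read that fits more than 1 transcript is not given in the sources used here, so these zeros are not read as absence. Mcm6, Mcm7 and Birc5 also have several accessions and are uncertain, with 41 to 249 counts per library.

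S-phase and mitotic genes both split by replicate number. In pools numbered 2, 12 of the 13 tested S-phase genes and 15 of the 15 tested mitotic genes were lower than in pools numbered 1, and none was higher (edgeR quasi-likelihood test with genotype as a covariate, adjusted p under 0.05). Of all 10757 genes tested, 17.8% were called lower in number 2 and 17.8% higher. The median fitted log2 difference, number 2 minus number 1, was -0.85 for S-phase genes, -0.84 for mitotic genes and 0.00 for all genes tested. All 25 single-accession members passed the low-count filter and all were called lower, by 1.54-fold (Cenpf) to 2.15-fold (Ccne1), with SEs of 0.09 to 0.14 on the log2 scale. In bulk tissue, fewer dividing cells and less of these RNAs per cell cannot be told apart.

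**Figure D1:**
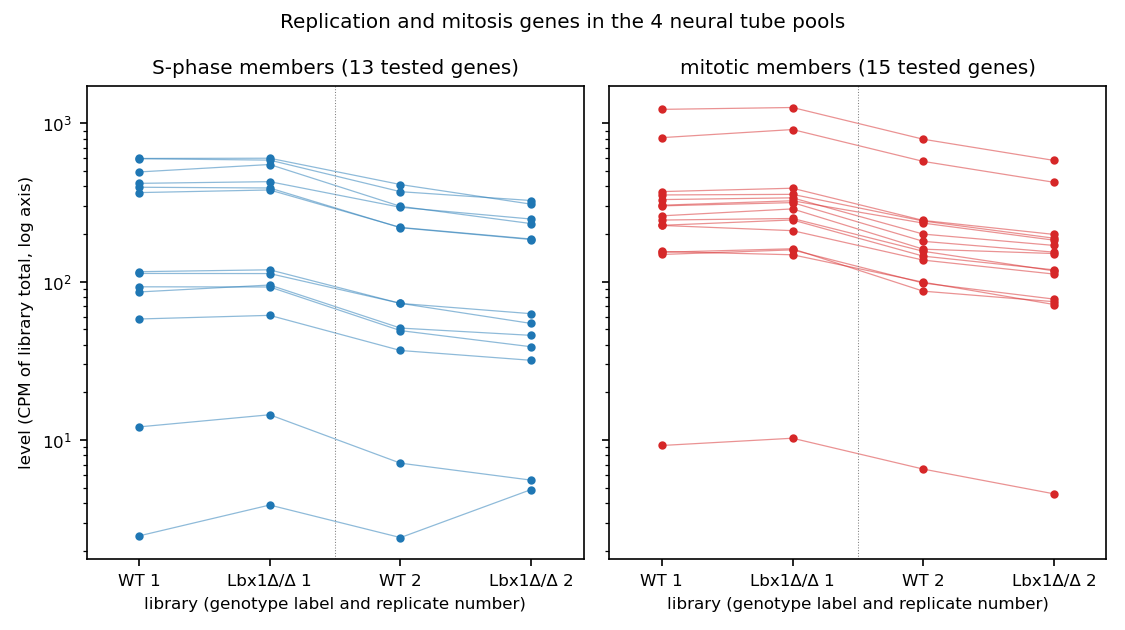
Level of each tested member in the 4 libraries, in CPM on a log axis, with S-phase genes and mitotic genes in separate panels. Each gene has 1 line joining its values in the order WT 1, Lbx1Δ/Δ 1, WT 2, Lbx1Δ/Δ 2. Apart from Mcm7, the lines run nearly level between the pools numbered 1, step down to WT 2 and are lowest in Lbx1Δ/Δ 2. Mcm7, on few counts, is highest in Lbx1Δ/Δ 2.

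Among the genes that license and open origins, Mcm2 was at 418 CPM in WT 1 and 428 CPM in Lbx1Δ/Δ 1, and at 295 and 249 CPM in WT 2 and Lbx1Δ/Δ 2. Mcm4, another subunit of the helicase that unwinds DNA, was at 395 and 391 CPM in WT 1 and Lbx1Δ/Δ 1 against 219 and 185 CPM in WT 2 and Lbx1Δ/Δ 2. Cdt1, the licensing factor that brings the helicase to origins, was at 86.1 and 95.2 CPM against 50.9 and 45.8 CPM in the same order. In all 3 genes the pools numbered 1 lay close together and above both pools numbered 2, while the genotypes overlapped. The fitted log2 difference was -0.66 (SE 0.10, adjusted p = 7.96e-05) for Mcm2, -0.98 (SE 0.09, adjusted p = 1.2e-06) for Mcm4 and -0.92 (SE 0.11, adjusted p = 1.11e-05) for Cdt1. Mcm3, whose promoter is shown above, fell by 0.90 (SE 0.10) from 365 and 379.6 CPM to 220.1 and 186 CPM, and Gins2, a subunit of the GINS complex that activates the helicase, fell by 0.82 (SE 0.14).

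Genes of DNA synthesis did the same. Pcna, the sliding clamp of the polymerases, was at 600.1 CPM in WT 1 and 602 CPM in Lbx1Δ/Δ 1, and at 411 and 309 CPM in WT 2 and Lbx1Δ/Δ 2. Rrm2, the regulatory subunit of ribonucleotide reductase, was at 493 and 549.7 CPM in the pools numbered 1 against 299 and 233 CPM in WT 2 and Lbx1Δ/Δ 2. Both genes were lowest in Lbx1Δ/Δ 2, and neither separated the genotypes. As means over the 2 pools of a number, Pcna stood at 601 ± 1.52 CPM (SD, n = 2) in number 1 and 359.7 ± 72.1 CPM (SD, n = 2) in number 2, and Rrm2 at 521 ± 39.9 and 266 ± 47.0 CPM (SD, n = 2 each). The fitted differences were -0.77 (SE 0.11, adjusted p = 5.58e-05) and -1.0 (SE 0.12, adjusted p = 7.45e-06). Rrm1, the catalytic subunit, differed by -0.79 (SE 0.10), Prim1, the primase that lays down RNA primers, by -0.85 (SE 0.11), and Pola1, the catalytic subunit of polymerase alpha, by -0.81 (SE 0.10).

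Ccne1, the cyclin that takes cells into S phase, had the widest fitted gap of the single-accession members by number. It stood at 92.8 and 92.6 CPM in WT 1 and Lbx1Δ/Δ 1 and at 49.1 and 38.8 CPM in WT 2 and Lbx1Δ/Δ 2, a log2 difference of -1.10 (SE 0.12, adjusted p = 2.82e-06). The gaps of Rrm2, Mcm4 and Ccnb2, at -1.0 (SE 0.12), -0.98 (SE 0.09) and -0.98 (SE 0.09), lie within the sum of their SEs and that of Ccne1, as does that of the uncertain Mcm6, at -1.08 (SE 0.22). The promoters of Ccne1, with none of the motifs, and of Cdk1, with all 3, were printed because of small p-values by number. That both genes were lower in number 2 therefore says nothing about the motifs.

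Cyclins and their kinase on the mitotic side separated the numbers in the same way. Ccnb2 was at 153 CPM in WT 1, 161 CPM in Lbx1Δ/Δ 1, 87.1 CPM in WT 2 and 74.8 CPM in Lbx1Δ/Δ 2. Cdk1 was at 227, 210.0, 137 and 112 CPM in the same order. The pools numbered 2 were below those numbered 1 in both genotypes, by a fitted -0.98 (SE 0.09, adjusted p = 1.02e-06) for Ccnb2 and -0.84 (SE 0.09, adjusted p = 2.06e-06) for Cdk1. Ccnb1, the main mitotic cyclin, and Ccna2, the cyclin of S phase and G2, differed by -0.81 (SE 0.10) and -0.88 (SE 0.09).

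Mki67, which coats mitotic chromosomes and is the usual marker of cycling cells, was at 812 and 914 CPM in WT 1 and Lbx1Δ/Δ 1 and at 575 and 424 CPM in WT 2 and Lbx1Δ/Δ 2. Top2a, the topoisomerase that untangles sister chromatids, was at 1226 and 1259 CPM against 794 and 583 CPM in the same order. For both, Lbx1Δ/Δ 1 was the highest library and Lbx1Δ/Δ 2 the lowest. The fitted differences were -0.82 (SE 0.13, adjusted p = 0.000117) for Mki67 and -0.89 (SE 0.12, adjusted p = 2.9e-05) for Top2a.

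Spindle and kinetochore genes fell within a narrow band. Plk1, the Polo kinase of mitotic entry, differed by -0.86 (SE 0.10) and Aurkb, the kinase of the chromosomal passenger complex, by -0.83 (SE 0.10). Bub1b, a checkpoint protein that restrains the anaphase-promoting complex, differed by -0.91 (SE 0.10), and Cdc20, the activator of that complex, by -0.84 (SE 0.09). Among motor proteins, Kif11, which pushes spindle poles apart, differed by -0.75 (SE 0.10), Kif23 of the central spindle by -0.86 (SE 0.10) and Cenpe of the kinetochore by -0.89 (SE 0.10). Cenpf, a kinetochore-associated protein, showed the smallest gap of the single-accession members, -0.62 (SE 0.11, adjusted p = 0.000263), from 304 CPM in WT 1 and 324 CPM in Lbx1Δ/Δ 1 to 234 CPM in WT 2 and 183 CPM in Lbx1Δ/Δ 2. The SD of the fitted difference over genes was 0.12 among the single-accession S-phase genes and 0.08 among the mitotic ones.

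Of the uncertain members with several accessions, Mcm6 fell by 1.08 (SE 0.22, adjusted p = 0.00106) and Birc5, an inhibitor of apoptosis in the passenger complex, by 0.84 (SE 0.24, adjusted p = 0.0129). Birc5 was not called with DESeq2. Mcm7 was the exception of the set: it stood at 2.48 CPM in WT 1, 2.42 CPM in WT 2, 3.88 CPM in Lbx1Δ/Δ 1 and 4.87 CPM in Lbx1Δ/Δ 2, on 41 to 82 counts per library, and its difference by number was 0.14 (SE 0.33, adjusted p = 0.787).

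**Figure D2:**
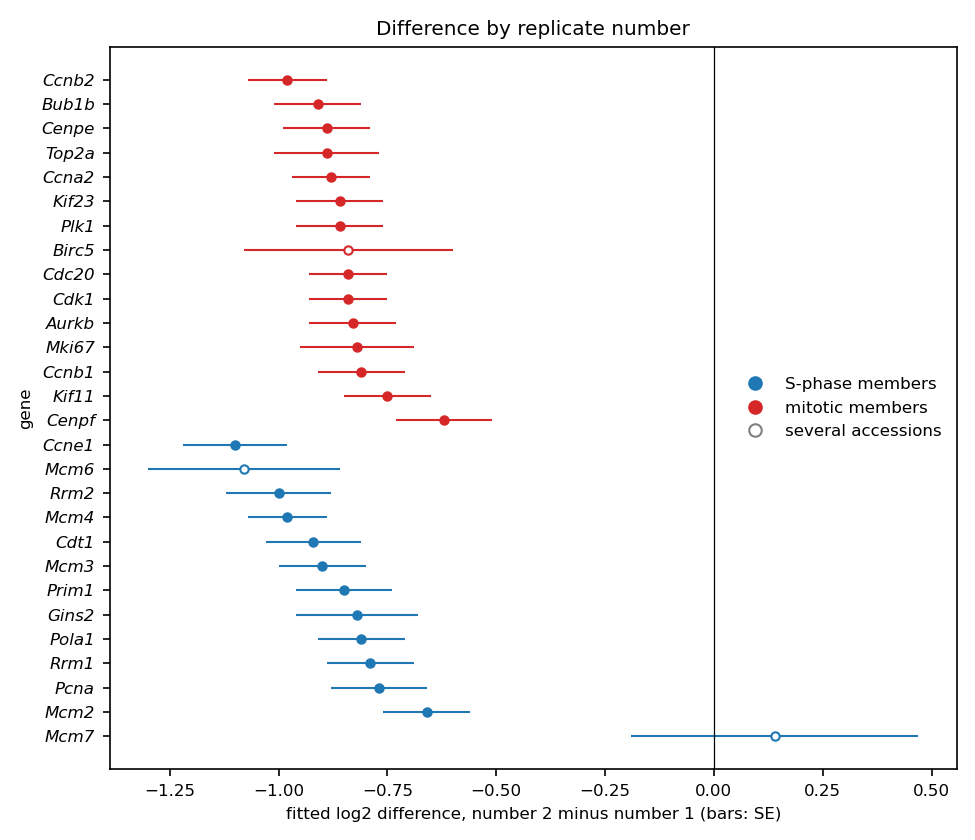
Fitted log2 difference (number 2 minus number 1) of each tested member with its SE as a bar, open circles for members with several accessions. Every member except Mcm7 lies below 0, the single-accession members between -1.10 and -0.62.

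Both pools numbered 2 were below both pools numbered 1 in CPM for 27 of 28 tested members, against 31.9% of all genes tested. Within WT the median difference was -0.70 for S-phase and -0.65 for mitotic genes, and within Lbx1Δ/Δ -1.06 and -1.07. Over the 25 single-accession genes, the difference within WT ranged from -0.93 to -0.38 and within Lbx1Δ/Δ from -1.28 to -0.81, with Pearson r = 0.56 and Spearman rho = 0.37 across genes. These are descriptions, since genes of the same libraries are not independent.

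The members' calls by number were lost when either pool numbered 1 was left out. In those fits the spread came only from WT 2 against Lbx1Δ/Δ 2. Without a pool numbered 2 it came only from WT 1 against Lbx1Δ/Δ 1. The fit with genotype leaves no residual freedom on 3 libraries, so genotype was dropped when a library was left out, a choice made after seeing the data. Without WT 1, 0 members were called (adjusted p from 0.0922 to 0.216 for members other than Mcm7) and 1 gene of all those tested. Without Lbx1Δ/Δ 1, 0 members (0.0663 to 0.258) and 6 genes were called. Without WT 2, 27 members were called among 3917 of 11354 genes tested, and without Lbx1Δ/Δ 2, 26 among 2387 of 11272, Birc5 being lost. In each of these the 27 members other than Mcm7 were lower in number 2, with log2 differences of -1.21 to -0.67 without WT 1 and -1.09 to -0.56 without Lbx1Δ/Δ 1.

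S-phase and mitotic genes moved by nearly the same proportion. The summed level of the 11 single-accession S-phase genes was 3335 CPM in WT 1, 3417 CPM in Lbx1Δ/Δ 1, 2097 CPM in WT 2 and 1719.8 CPM in Lbx1Δ/Δ 2. For the 14 mitotic genes the sums were 5113, 5359.8, 3349.9 and 2623 CPM in that order. The ratio of the mitotic to the S-phase sum was 1.53, 1.57, 1.60 and 1.52, so it did not sort by number or by genotype. The 25 single-accession members together took 0.845% and 0.878% of the counts in WT 1 and Lbx1Δ/Δ 1, and 0.545% and 0.434% in WT 2 and Lbx1Δ/Δ 2.

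By genotype label, 0 of 28 tested members were called between Lbx1Δ/Δ and WT (edgeR, genotype alone), and 0 reached 0.05 before adjustment. Of all 10757 genes 0.0% were called, with 55 genes at an unadjusted p under 0.05. The count of calls was 0 with DESeq2 and with limma-voom too, where 33 and 61 genes passed 0.05 before adjustment. The count over all genes was higher with replicate number as a block, as given in the closing section, where no member was called. The median fitted log2 difference, Lbx1Δ/Δ minus WT, was -0.06 for S-phase and -0.07 for mitotic genes. In 27 of 28 members the difference was smaller than its own SE. Outside Mcm7 it ran from -0.22 for Kif23 (SE 0.43) to 0.05 for Cdc20 (SE 0.41) and Mcm6 (SE 0.57). The SEs of 0.33 to 0.57 come from a fit in which the spread within a genotype includes the difference by number.

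The spread within each genotype followed the number. The mean level of Mki67 was 694 ± 168 CPM in the WT pools and 669 ± 346 CPM in the Lbx1Δ/Δ pools (SD, n = 2 each), and the lower value of each genotype was the pool numbered 2. The genotypes did not overlap in CPM for 1 of 28 members, Mcm7, against 20.6% of all genes tested. Mcm7 was fitted 0.82 higher in Lbx1Δ/Δ (SE 0.35, adjusted p = 0.9998), on few counts of a gene with several accessions.

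Compared within a number, the genotypes lay close together in number 1 and further apart in number 2. Within number 1, 6 of 28 members were lower in Lbx1Δ/Δ, against 49.8% of all genes tested, and the median log2 difference was 0.06. Within number 2, 27 of 28 were lower, against 52.6% of all genes, and the median was -0.32, with -0.27 for S-phase and -0.36 for mitotic genes. Members lower in Lbx1Δ/Δ within both numbers were 6 of 28, against 30.8% of all genes. Those higher within number 1 and lower within number 2 were 21 of 28, against 21.8% of all genes, 8 of them S-phase and 13 mitotic. Each within-number difference sets 1 pool against 1 pool and has no replicate check, and an interaction of genotype with number could not be tested with 4 libraries.

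Single genes show the size of it. Mki67 was 0.17 higher in Lbx1Δ/Δ within number 1 and 0.46 lower within number 2 on the log2 scale (-0.46). Pcna differed by 0.00 and -0.44, Top2a by 0.04 and -0.47, and Kif23 by -0.07 and -0.49. The smallest difference within number 2 was that of Cdc20, at -0.12, and the smallest of the S-phase genes was that of Cdt1, at -0.18.

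**Figure D3:**
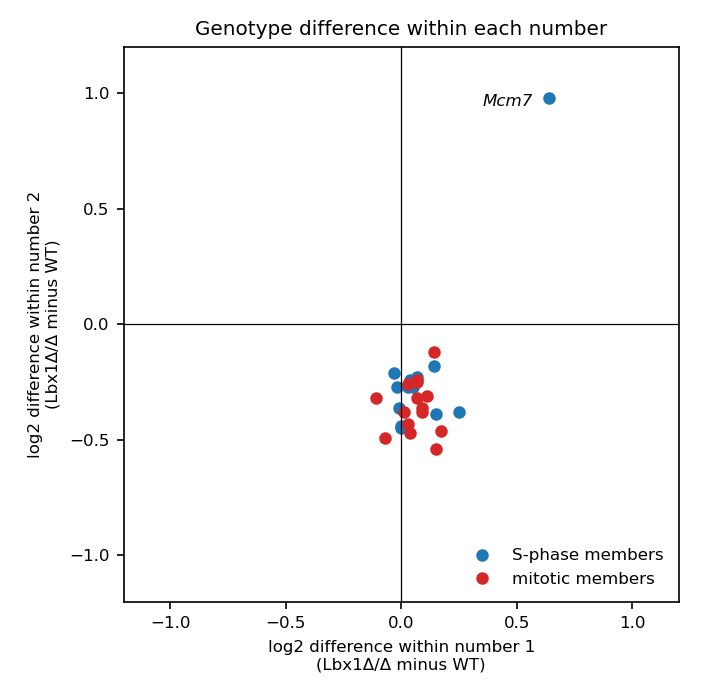
Log2 difference Lbx1Δ/Δ minus WT of each tested member within number 1 (x axis) and within number 2 (y axis), 1 point per gene. Points cluster near 0 on the x axis and between -0.54 and -0.12 on the y axis, with Mcm7 alone at 0.64 and 0.98.

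Other genes of the same machinery, taken from separate lists also chosen with earlier results known, split by number as well. Of 32 other replication genes 18 were tested, and 18 were lower in number 2 and 0 higher, with a median of -0.81. Chaf1a, a subunit of the chromatin assembly factor that follows the fork, fell by 0.92 (SE 0.08, adjusted p = 6.28e-07), and the polymerase subunits Pole and Pold1 by 0.84 (SE 0.10) and 0.77 (SE 0.09). Of 40 other mitosis genes 24 were tested, and 22 were lower and 0 higher, with a median of -0.84. Ncapg of the condensin complex fell by 0.96 (SE 0.09, adjusted p = 1.02e-06), Cdca8 of the passenger complex by 0.93 (SE 0.10), the cytokinesis scaffold Anln by 0.91 (SE 0.09) and the chromosome motor Kif22 by 0.80 (SE 0.08).

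Upstream regulators were mixed. Of 19 transcription regulators of the cell cycle 11 were tested, with 6 lower in number 2, 1 higher and a median of -0.47. Most of those not called had several accessions and few counts, and are uncertain. With only single-accession genes kept, 6 were tested, with 4 lower and 1 higher. Foxm1, the activator of mitotic genes, stood at 174 and 193 CPM in WT 1 and Lbx1Δ/Δ 1 and 111 and 107 CPM in WT 2 and Lbx1Δ/Δ 2, a log2 difference of -0.77 (SE 0.09, adjusted p = 4.46e-06), and Mybl2, which encodes B-Myb, fell by 0.93 (SE 0.12). Rbl1, a pocket protein, fell by 0.54 (SE 0.12), whereas Rb1, the retinoblastoma protein that holds E2F in check, was higher in number 2 by 0.39 (SE 0.08, adjusted p = 0.00109). Rb1 stood at 137 and 126 CPM in WT 1 and Lbx1Δ/Δ 1 and at 185 and 166 CPM in WT 2 and Lbx1Δ/Δ 2, so the numbers did not overlap.

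Of 7 genes for cyclins and kinases of G1, 6 were tested, with 4 lower in number 2 and 0 higher. Ccnd2, a D-type cyclin, had the widest gap among them, with 929 and 906 CPM in WT 1 and Lbx1Δ/Δ 1 against 481 and 356 CPM in WT 2 and Lbx1Δ/Δ 2, a log2 difference of -1.17 (SE 0.11, adjusted p = 1.29e-06). Ccnd1 and Cdk4 fell by 0.46 (SE 0.10) and 0.45 (SE 0.09), and the phosphatase Cdc25a by 0.57 (SE 0.08). Of 11 inhibitors 6 were tested, with 3 lower and 1 higher. The 3 that fell were Gmnn, which blocks relicensing, by 0.93 (SE 0.14), Fbxo5, an inhibitor of the anaphase-promoting complex, by 0.97 (SE 0.12) and Pkmyt1, an inhibitory kinase of Cdk1, by 0.48 (SE 0.14). Cdkn1b, the p27 inhibitor of cyclin kinases, was higher by 0.24 (SE 0.08, adjusted p = 0.0305) and was not called with DESeq2, with limma-voom, without the low-count filter or without the genotype term. DESeq2 called 2 inhibitors lower. No gene of these 5 lists was called by genotype, and, as for the members, none was called by number once WT 1 or Lbx1Δ/Δ 1 was left out.

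Markers of cell types moved with the number as well. All 8 tested neuronal markers of 12 were higher in number 2, with a median of 0.91, and their summed level was 6898 and 7578 CPM in WT 1 and Lbx1Δ/Δ 1 against 12332 and 13910.0 CPM in WT 2 and Lbx1Δ/Δ 2. Map2, a dendritic microtubule protein, rose by 1.46 (SE 0.10, adjusted p = 3.69e-08). Of 10 tested progenitor markers of 12, 3 were higher, 2 were lower and 5 were not called, with a median of 0.15. DESeq2 called 2 higher and 1 lower, and the fit without the genotype term 1 higher and 1 lower. Fabp7 of radial glia rose by 0.78 (SE 0.10) and the RNA-binding protein Msi1 by 0.40 (SE 0.09), while Sox3 and the Notch target Hes1 fell by 0.59 (SE 0.15) and 0.50 (SE 0.16). Pax6, a defining progenitor factor with several accessions, is listed at 0 in all libraries. The summed level of the 25 single-accession members was set against that of all 12 listed markers of a kind. Against the neuronal markers it was 1.22 and 1.16 times in WT 1 and Lbx1Δ/Δ 1. In WT 2 and Lbx1Δ/Δ 2 it was 0.442 and 0.312 times. Against the progenitor markers it was 1.62 and 1.60 times, then 0.937 and 0.717 times. These members were thus lower in number 2 relative to the sum of either list. Abundant genes weigh most in such sums. Among them, Fabp7 was at 658 and 780 CPM in WT 1 and Lbx1Δ/Δ 1, and at 1209 and 1275 CPM in WT 2 and Lbx1Δ/Δ 2.

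Markers of several tissues outside the tube were lower in number 2 as well. Erythroid markers (6 of 6 tested lower, 8 listed, Hba-a1 and Alas2 at 0) summed to 8139 and 5823 CPM in WT 1 and Lbx1Δ/Δ 1 and to 2757 and 2561 CPM in WT 2 and Lbx1Δ/Δ 2. Muscle markers (7 of 7 tested lower, 10 listed, Tnnt1 and Tnnt2 at 0) summed to 928 and 795 CPM and to 439.97 and 139 CPM in that order. Mesenchyme markers (6 of 10 lower, none at 0) summed to 6524 and 4658 CPM and to 4865 and 4307 CPM, where WT 2 lay above Lbx1Δ/Δ 1. Surface ectoderm markers (3 of 5 tested lower, 7 listed) summed to 51.2 to 130.0 CPM, and endothelial markers (0 of 4 tested lower, 1 higher, 7 listed, Pecam1, Tek and Esam at 0) to 438 to 489 CPM. Markers of sensory ganglia and neural crest (1 of 6 tested lower, 3 higher, 8 listed, Prph at 0) summed to 413 to 724 CPM. Without WT 1 or without Lbx1Δ/Δ 1 no marker of any list was called by number, except 2 erythroid markers without Lbx1Δ/Δ 1. The part of these tissues in the members' difference by number was not tested.

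The same lists can be set beside the genotype difference within number 2. Muscle markers had a median of -0.22 within number 1 and -1.57 within number 2, and surface ectoderm markers -0.51 and -0.83, against 0.06 and -0.32 for the members. Neuronal markers had medians of 0.16 and 0.11, progenitor markers 0.15 and 0.07, mesenchyme markers -0.26 and -0.27 and erythroid markers -0.36 and -0.29. The part of muscle or ectoderm in the lower members of Lbx1Δ/Δ 2 was not tested.

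**Figure D4:**
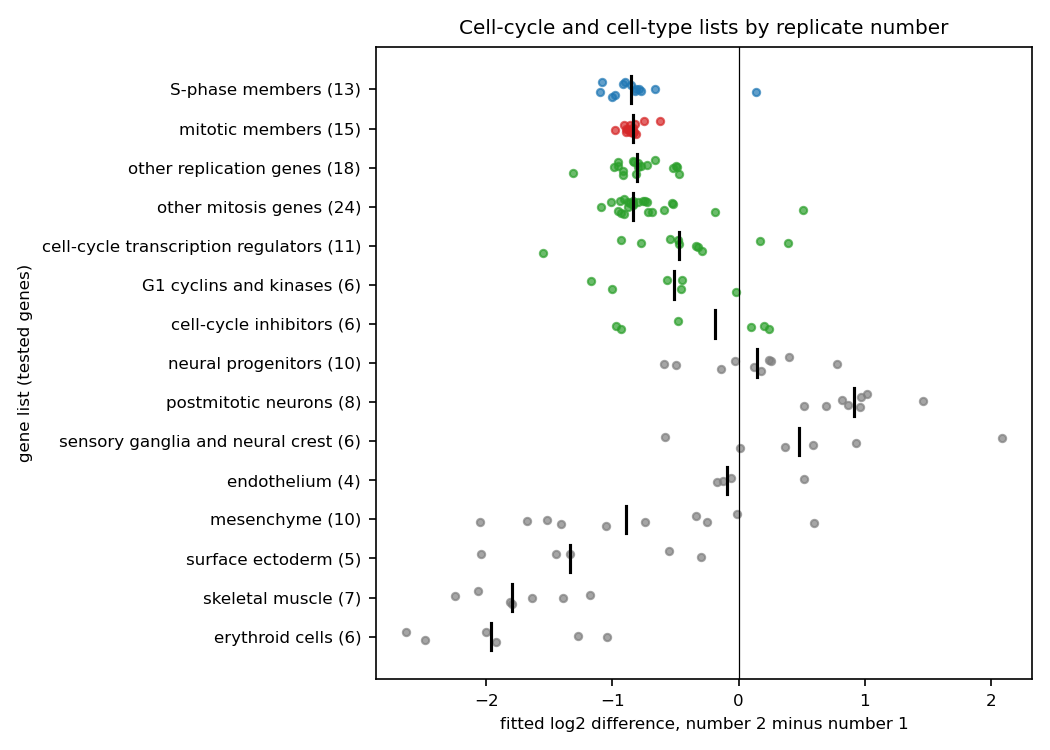
Fitted log2 difference (number 2 minus number 1) of every tested gene in the cell-cycle lists and the cell-type marker lists, 1 dot per gene, with the median of each list as a black bar and vertical scatter for visibility only. The replication and mitosis lists lie near -0.8, neuronal markers near 0.91, and muscle and erythroid markers at -1.80 and -1.96.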

How the data were processed

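Total RNA of pooled neural tubes was sequenced on an Illumina HiSeq from NEBNext Ultra libraries, per the labels' protocols. TopHat2 2.1.1, featureCounts 4.6.0.1, edgeR 3.4.3 and genome build mm9 are listed in the submitters' processing notes, without their roles. For the annotation, the strand setting and reads that fit more than 1 transcript, the choice is not given in the sources used here, so overlapping or near-identical genes may be counted in part. The deposited values are raw read counts per transcript accession, whole numbers with no normalization, per the files themselves.

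The 41411 accessions were named from RefSeq tables (41218) or a GENCODE annotation (97), and 96 without a name were kept as genes of their own. Counts were summed per symbol, and 99.4% to 99.7% of each library's counts had a name. Libraries were grouped by the genotype and replicate number in their labels. Genes were filtered with filterByExpr (minimum count 10, minimum total 15) and TMM-scaled, and tested two-sided with glmQLFit and glmQLFTest (edgeR 4.0.16, R 4.3.3): genotype alone, and replicate number with genotype as a covariate. Benjamini-Hochberg adjustment ran over all 10757 genes, at a threshold of 0.05. CPM are relative to the library total, and TMM moved the libraries by -0.02 to 0.01 on the log2 scale. Log2 differences between single libraries had 0.5 counts added. The tests were tried on simulated counts.

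The members and lists were chosen with earlier results of these data known. Any member could be named, and from each other list up to 4 genes with the smallest p by number, of which only some are named. Markers at 0 and Sox2 and Tubb3 were named outside that rule, after their values were seen. Alternatives were RLE, upper-quartile and library-total scaling, DESeq2 1.42.0, limma-voom (limma 3.58.1), no filter, single-accession genes, the most abundant accession, the replicate block, no genotype term, and leaving out each library.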

Additional observations from a re-analysis of the deposited data

How the results depend on the processing

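With 2 pools per genotype, the genotype difference of the members depended on which pool was kept. Leaving out 1 library at a time, the median fitted log2 difference ran from -0.67 to 0.37 for S-phase and from -0.68 to 0.35 for mitotic genes, with 0 members called each time. The same ranges for single S-phase genes were Mcm2 (-0.53 to 0.26), Mcm3 (-0.67 to 0.37), Mcm4 (-0.75 to 0.40), Mcm6 (-0.80 to 0.58), Pcna (-0.73 to 0.25), Cdt1 (-0.60 to 0.48), Gins2 (-0.59 to 0.37), Rrm1 (-0.59 to 0.31), Rrm2 (-0.78 to 0.47), Prim1 (-0.78 to 0.27), Pola1 (-0.60 to 0.33), Ccne1 (-0.89 to 0.43). For mitotic genes they were Mki67 (-0.72 to 0.40), Top2a (-0.81 to 0.32), Ccna2 (-0.66 to 0.36), Ccnb1 (-0.64 to 0.34), Ccnb2 (-0.70 to 0.45), Cdk1 (-0.72 to 0.25), Aurkb (-0.68 to 0.36), Bub1b (-0.66 to 0.40), Plk1 (-0.66 to 0.40), Cenpe (-0.79 to 0.32), Cenpf (-0.57 to 0.27), Kif11 (-0.68 to 0.26), Kif23 (-0.84 to 0.22), Cdc20 (-0.50 to 0.46), Birc5 (-0.80 to 0.38). Each was positive with a pool numbered 1 missing from WT or a pool numbered 2 missing from Lbx1Δ/Δ, and negative otherwise.

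The labels do not state that a shared replicate number marks a shared litter, so no pairing was assumed. Number-2 deviations of WT and Lbx1Δ/Δ had r = 0.657 over 10757 genes, with 2 pairs only. With the replicate block 92 genes were called by genotype instead of 0 (29 higher, 63 lower), none a member, 3 members had an unadjusted p under 0.05, and the smallest adjusted p of a member was 0.243 (Kif23). Mcm6 and Cdt1 changed sign under the block (-0.03 and -0.01) and under limma-voom (-0.08 and -0.03).

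By number, genes called ranged from 1 to 3917 when a library was left out and genotype dropped (1 to 1878 higher, 0 to 2039 lower), S-phase members called from 0 to 12 and mitotic from 0 to 15. The median within 1 genotype, where no test can be had, was -1.06 to -0.70 for S-phase and -1.07 to -0.65 for mitotic genes. Mcm7 ran from -0.39 to 0.59 when a library was left out and genotype dropped. With all 4 libraries, the scaling, test, filter and accession alternatives called 2592 (DESeq2) to 3979 (no filter) genes and 26 or 27 of the members, or 25 of 25 where only single-accession genes were kept. With DESeq2, genes called lower by number were 16 of 18 other replication genes, 21 of 24 other mitosis genes, 5 of 11 transcription regulators, 5 of 7 muscle and 5 of 6 erythroid markers. Without the genotype term 2739 genes and 27 members were called. Depth limits Mcm6, Mcm7 and Birc5, and the 8 members not tested.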
